A study of Rattus norvegicus with 10 samples.

Results

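Genes that copy DNA and supply its building blocks were followed in nasal epithelium of rats given N,N-dimethyl-p-toluidine (DMPT). Of 44 genes listed by function, 39 were measured by a probe set annotated to that gene alone, out of 14217 genes measured in all. Cdc6, Cdc7, Dbf4, Gins2 and Rrm2 had no such probe set and have no values here. The 39 genes had 53 probe sets, and each gene is shown by its probe set with the highest mean.

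Male F344/N rats, 5-6 weeks old at the start, were dosed by corn oil gavage for 5 days with DMPT at 120 mg/kg/day or with corn oil alone. DMPT is an aromatic amine that speeds the setting of acrylic dental and bone cements. Transitional epithelium was cut from nasal sections by laser capture, and amplified RNA of each of 10 animals, 5 per group, was hybridised to a rat array. Both groups share the strain, the sex and the gavage vehicle, 1 dose was profiled, and captured pieces are bulk samples, in which more cells of a kind and more RNA per cell cannot be told apart.

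DNA replication starts when the origin recognition complex, CDC6 and CDT1 load the MCM2-7 helicase onto origins, a step called licensing that geminin holds back outside G1. In S phase the kinase CDC7-DBF4 and cyclin-dependent kinases turn the loaded ring into an active helicase with CDC45 and GINS. Primase and the polymerases then copy both strands behind it, with the PCNA clamp holding polymerases and ligase in place and with ribonucleotide reductase, thymidylate synthase and thymidine kinase feeding in deoxynucleotides. In adult epithelium most of these genes are transcribed mainly in cycling cells, under E2F transcription factors.

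Most measured transcripts of the replication machinery were higher after DMPT, and each role group held genes that rose. Of the 39 genes, 31 rose and 0 fell at an adjusted p of 0.05 in the limma fit, and 8 did not pass (Orc6, Mcm7, Prim2, Pold1, Rfc2, Rfc5, Rpa1 and Lig1). Across all genes 7.13% were called higher and 6.77% lower, and of all probe sets 5.37% and 5.74%. All 39 differences were above 0, against 49.1% of all genes. Their median difference was 0.72 log2 units and their range 0.14 to 1.77, with a median of -0.0052 over all genes. A rise of at least 2-fold was found in 11 members, against 1.91% of all genes. The lowest DMPT array lay above the highest vehicle array for 23 of the 39, against 7.58% of all genes. Without vehicle replicate 2, which lay apart from the other vehicle arrays over all genes, these counts were 33 called and 29 not overlapping, against 9.19% and 11.2% of all genes, and the median difference was 0.63.

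**Figure D1:**
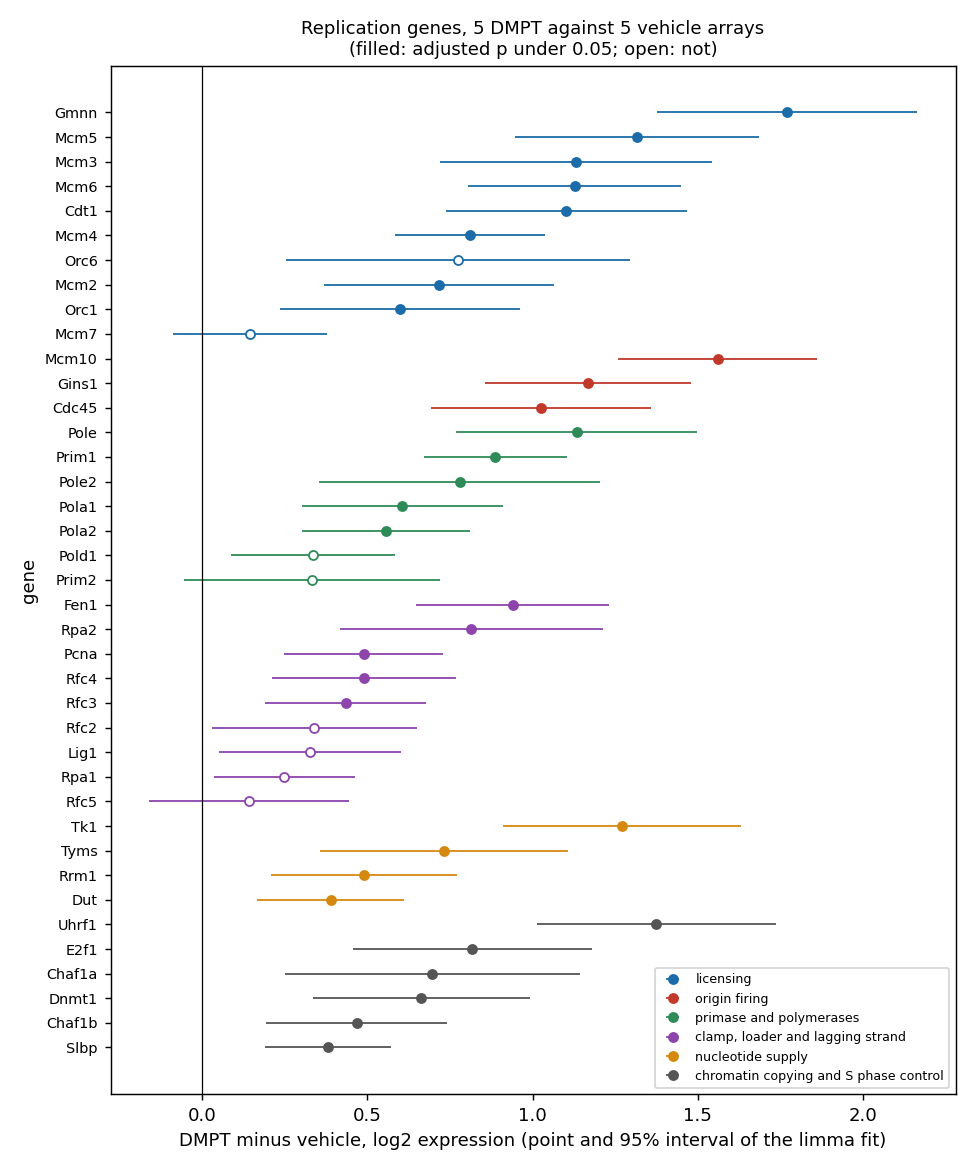
Difference in log2 expression between 5 DMPT and 5 vehicle arrays for each of the 39 measured genes (x axis), grouped by role (colours); points are limma estimates and bars 95% intervals. Filled points passed an adjusted p of 0.05 and open points did not; all 39 points lie to the right of 0, from Mcm7 and Rfc5 at 0.14 to Gmnn at 1.77.

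**Figure D2:**
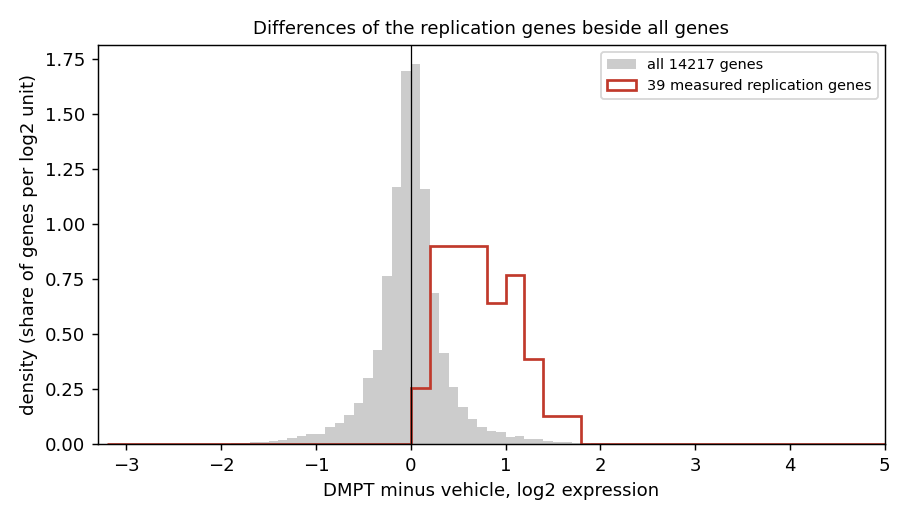
Density of the DMPT minus vehicle difference in log2 expression (x axis) for all 14217 genes (grey) and for the 39 replication genes (red line). All genes centre on -0.0052, while the replication genes lie between 0.14 and 1.77.

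Median differences by role ran from 0.43 to 1.17. The median was 1.17 log2 units for origin firing, 0.96 for licensing, 0.68 for chromatin copying and S phase control, 0.61 for nucleotide supply, 0.61 for primase and polymerases and 0.43 for the clamp, its loader and the lagging strand. Those role groups held 3, 10, 6, 4, 7 and 9 measured genes, and differences between them were not tested.

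The arrays did not share the rise evenly. DMPT replicate 5 had the lowest value of its group for 23 of the 39 genes, and DMPT replicate 3 the highest for 19. In the vehicle group, replicate 2 had the highest value for 26 of the 39 and replicate 4 the lowest for 13. Vehicle replicate 2 also had the highest median over all tested probe sets, 8.35 against 8.21 to 8.28 in the other arrays. The same counts were not made over all genes, so they are not particular to the members. The median deviation of the 39 genes from their vehicle means lay between 0.52 and 0.78 in the DMPT arrays, and between -0.19 and 0.27 in the vehicle arrays. DMPT replicate 5 exceeded every vehicle array for 25 genes, and each other DMPT array did so for 34 to 36. The median SD of the 39 genes was 0.27 with vehicle and 0.17 after DMPT, and the vehicle SD was the larger for 31 of them. Over all genes those medians were 0.22 and 0.15, and the vehicle SD was the larger for 70.5%. Without vehicle replicate 2 the median vehicle SD of the members was 0.20, and that of all genes 0.16.

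**Figure D3:**
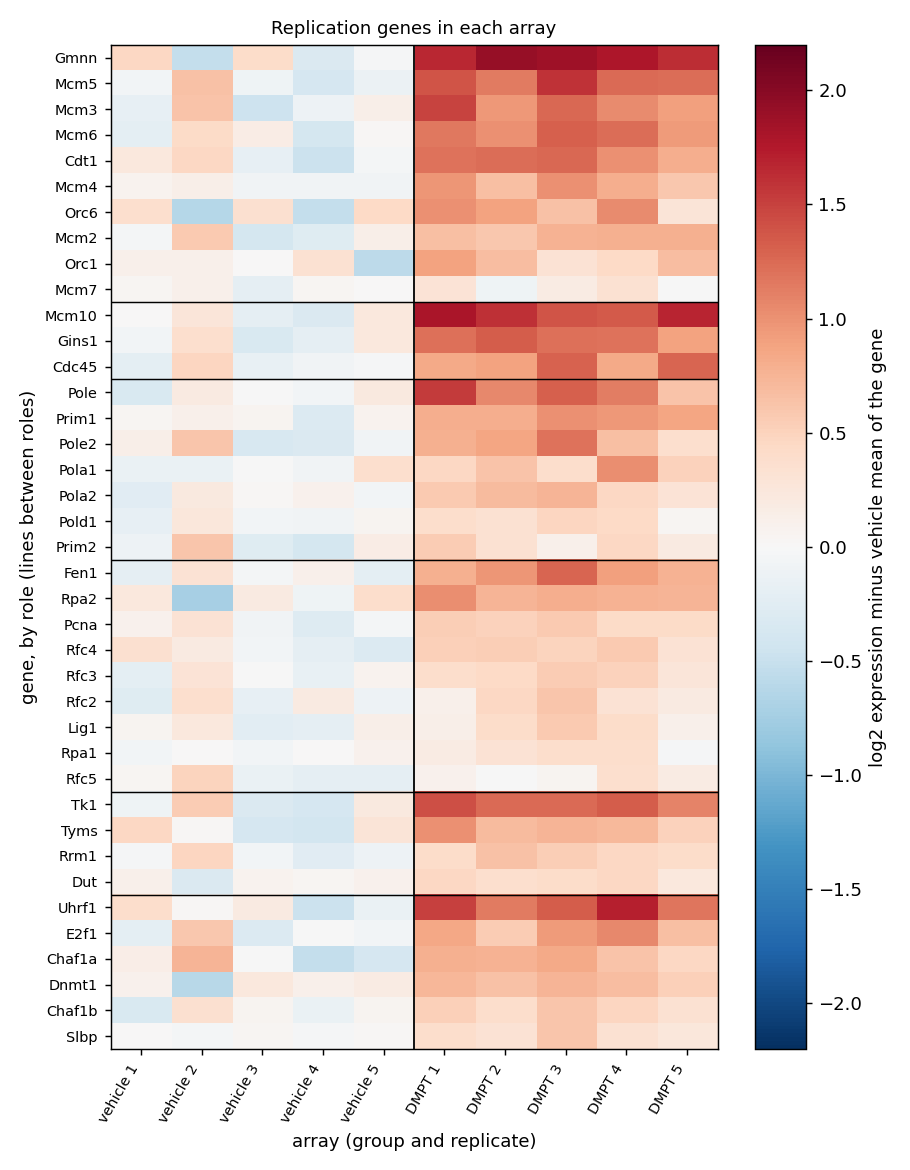
Log2 expression of the 39 genes (rows, by role) in each of the 10 arrays (columns), as the difference from the mean of the vehicle arrays (colour scale in log2 units). DMPT columns are red throughout for most genes; vehicle replicate 2 is the highest vehicle array for 26 genes and DMPT replicate 5 the lowest DMPT array for 23. Vehicle replicate 2 also had the highest median over all tested probe sets.

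Promoters were searched for E2F words because E2F factors are the known regulators of this gene set. Members were listed by function, so their share of such words was set by that choice and does not depend on DMPT. The RefSeq table (build GRCr8) covers 250 bases before to 50 bases after each start and held 36 of the 39 measured genes; Orc1, Mcm4 and E2f1 were not matched. One of the words TTTCCCGC, TTTGGCGC, TTTCGCGC or TTTGCCGC, on either strand with overlapping matches joined, was present for 18 of the 36 genes. The same words were present for 439 of 11733 genes on the array that had a promoter in the table (3.74%). The mean GC content of these promoters was 59.5%, and that of genes on the array 59.4%. Among members with a promoter, the words were present for 16 of the 28 that rose and for 2 of the 8 that did not pass, Lig1 and Mcm7. The pentamer CCAAT, on either strand, was present for 21 of the 36 genes (58.3%) and for 38.6% of genes on the array. The CHR words TTTGAA and TTCGAA, on either strand, were present for 7 of the 36 genes (19.4%) and for 1758 of the 11733 genes on the array. Some words lie after the start, as in Gmnn, Cdt1, Lig1, Dnmt1, Rpa2 and Pole2. Such matches describe letters in a window and are not evidence of binding. The split between members that rose and those that did not pass was not tested, nor was a part of E2F factors in the rise.

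The upstream 250 bases of 4 helicase subunit genes are shown, 3 that rose and Mcm7, which did not pass, since subunits of 1 ring gave different values. Capitals mark E2F words on either strand, and each sequence ends at the base before the start. Mcm2 lies at chr4:122918095-122918344 on the minus strand, Mcm5 at chr19:13488563-13488812 on the plus strand, Mcm6 at chr13:42404353-42404602 on the minus strand and Mcm7 at chr12:22163179-22163428 on the minus strand, all in GRCr8 from RefSeq. The word begins 14 bases before the start in Mcm2, 213 and 8 in Mcm5, 139 in Mcm6, and 233 and 52 in Mcm7. In Mcm2, Mcm5 and Mcm6, words on the 2 strands overlap to form TTTCGCGCGAAA, TTTCGCGCCAAA and TTTGGCGCGAAA.
Mcm2: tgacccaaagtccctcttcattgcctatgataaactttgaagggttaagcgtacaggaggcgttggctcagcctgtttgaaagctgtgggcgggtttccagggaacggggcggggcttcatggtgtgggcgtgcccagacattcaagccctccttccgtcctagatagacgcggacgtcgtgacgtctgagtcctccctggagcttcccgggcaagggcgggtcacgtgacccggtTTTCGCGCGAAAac
Mcm5: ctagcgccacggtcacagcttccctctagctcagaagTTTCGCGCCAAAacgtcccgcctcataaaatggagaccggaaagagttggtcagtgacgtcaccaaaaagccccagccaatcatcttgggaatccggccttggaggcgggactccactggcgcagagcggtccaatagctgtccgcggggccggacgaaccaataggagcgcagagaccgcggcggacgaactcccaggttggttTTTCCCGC
Mcm6: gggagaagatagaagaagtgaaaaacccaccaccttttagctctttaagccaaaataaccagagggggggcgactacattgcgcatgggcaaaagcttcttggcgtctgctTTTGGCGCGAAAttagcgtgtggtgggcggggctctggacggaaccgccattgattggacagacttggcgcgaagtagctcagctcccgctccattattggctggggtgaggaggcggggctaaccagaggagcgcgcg
Mcm7: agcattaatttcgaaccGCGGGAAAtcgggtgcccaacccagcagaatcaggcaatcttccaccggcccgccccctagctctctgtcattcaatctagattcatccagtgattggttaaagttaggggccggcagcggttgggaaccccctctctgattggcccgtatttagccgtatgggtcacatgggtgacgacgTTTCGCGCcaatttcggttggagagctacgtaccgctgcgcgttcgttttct

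Licensing genes rose in 8 of 10 cases. Gmnn, which encodes geminin, the inhibitor of CDT1, had the largest difference of all members. It read 9.97, 8.99, 9.92, 9.20 and 9.48 log2 units in vehicle replicates 1 to 5 and 11.17, 11.44, 11.38, 11.29 and 11.14 in DMPT replicates 1 to 5. Every DMPT array lay above every vehicle array, by more than the spread inside either group. The difference was 1.77 ± 0.18 (standard error of the fit, as after every ± below), or 3.41-fold, with an adjusted p of 0.000134 in limma, and a further probe set of Gmnn gave 1.69. Cdt1, the licensing factor that geminin binds, rose by 1.10 ± 0.17.

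The 6 subunits of the helicase ring did not give equal values. Mcm5 rose by 1.32 ± 0.17, Mcm3 by 1.13 ± 0.19, Mcm6 by 1.13 ± 0.15, Mcm4 by 0.81 ± 0.10 and Mcm2 by 0.72 ± 0.16. Mcm4 read 10.94, 11.00, 10.79, 10.78 and 10.79 with vehicle and 11.84, 11.53, 11.87, 11.66 and 11.46 after DMPT, in replicate order. The vehicle values were tight and the groups did not overlap (adjusted p = 0.000609). Mcm2 read 8.92, 9.53, 8.57, 8.69 and 9.08 with vehicle and 9.62, 9.56, 9.72, 9.74 and 9.74 after DMPT. Vehicle replicate 2 came close to the DMPT arrays, which were nearly level with each other (adjusted p = 0.0143, and 0.000810 without that array). Mcm7 read 11.85, 11.92, 11.61, 11.85 and 11.83 with vehicle and 12.11, 11.73, 11.99, 12.15 and 11.80 after DMPT. Here the groups overlapped, with DMPT replicates 2 and 5 inside the vehicle range. Mcm7 differed by 0.14 ± 0.11 (adjusted p = 0.465), with a 95% interval from -0.09 to 0.38, whose upper end lies below the lower ends for Mcm5, Mcm3, Mcm6 and Mcm4 (0.95, 0.72, 0.80 and 0.58). For Mcm2 the lower end, 0.369, lay below the upper end for Mcm7, 0.376, so those 95% intervals overlapped. The difference between Mcm7 and the other subunits was not itself tested.

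Of the origin recognition complex, Orc1, its cell cycle regulated ATPase subunit, rose by 0.60 ± 0.17 (adjusted p = 0.0392). With a vehicle mean of 5.71 it was dimmer than the first quartile of each array, so the size is uncertain. The call held without DMPT replicate 3 or vehicle replicates 2 or 4 but not without any other single array, with differences from 0.45 to 0.68 and adjusted p up to 0.0880. Here and below, each fit without an array has fewer arrays and its own adjustment. A lost call therefore does not by itself show that the omitted array carried the rise. Orc6 differed by 0.77 ± 0.24 and did not pass (adjusted p = 0.0596), but passed without DMPT replicate 5 (adjusted p = 0.0463) or vehicle replicate 5 (0.0494). A second probe set of Orc6 was called at 0.59 and a further one was not at 0.58. Orc2, Orc3, Orc4 and Orc5, subunits outside the list of members, differed by 0.13, -0.07, 0.04 and -0.26, and 0 of these 4 passed.

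All 3 measured genes of origin firing rose. Mcm10, which helps to start the assembled helicase, read 6.61, 6.88, 6.41, 6.29 and 6.85 with vehicle and 8.40, 8.21, 7.99, 7.96 and 8.28 after DMPT. The gap between the groups was wider than the range of either, and the difference was 1.56 ± 0.14 (adjusted p = 5.81e-05), the smallest p of the 39 genes. Another Mcm10 probe set gave 0.90. Gins1, a subunit of the GINS part of the helicase, read 7.61, 8.03, 7.33, 7.47 and 7.89 with vehicle and 8.88, 9.01, 8.88, 8.86 and 8.54 after DMPT. It rose by 1.17 ± 0.14 with no overlap (adjusted p = 0.000465). Cdc45, the helicase cofactor, read 8.10, 8.78, 8.15, 8.24 and 8.29 with vehicle and 9.14, 9.19, 9.62, 9.14 and 9.59 after DMPT, with vehicle replicate 2 above the other vehicle arrays. Cdc45 rose by 1.02 ± 0.15 (adjusted p = 0.00152), and of its other 3 probe sets 2 were called higher and 1, at 0.14, was not. Among helicase and origin genes outside the members, 4 of 13 rose and 0 fell. They were Gins4 at 0.91 ± 0.15, the helicase gene Recql4 at 0.64 ± 0.11, Gins3 at 0.64 ± 0.19 and Mtbp at 0.50 ± 0.15. The calls of Gins3 and Mtbp were lost without 7 and 8 of the 10 arrays in turn, with differences from 0.53 to 0.76 and from 0.39 to 0.60.

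**Figure D4:**
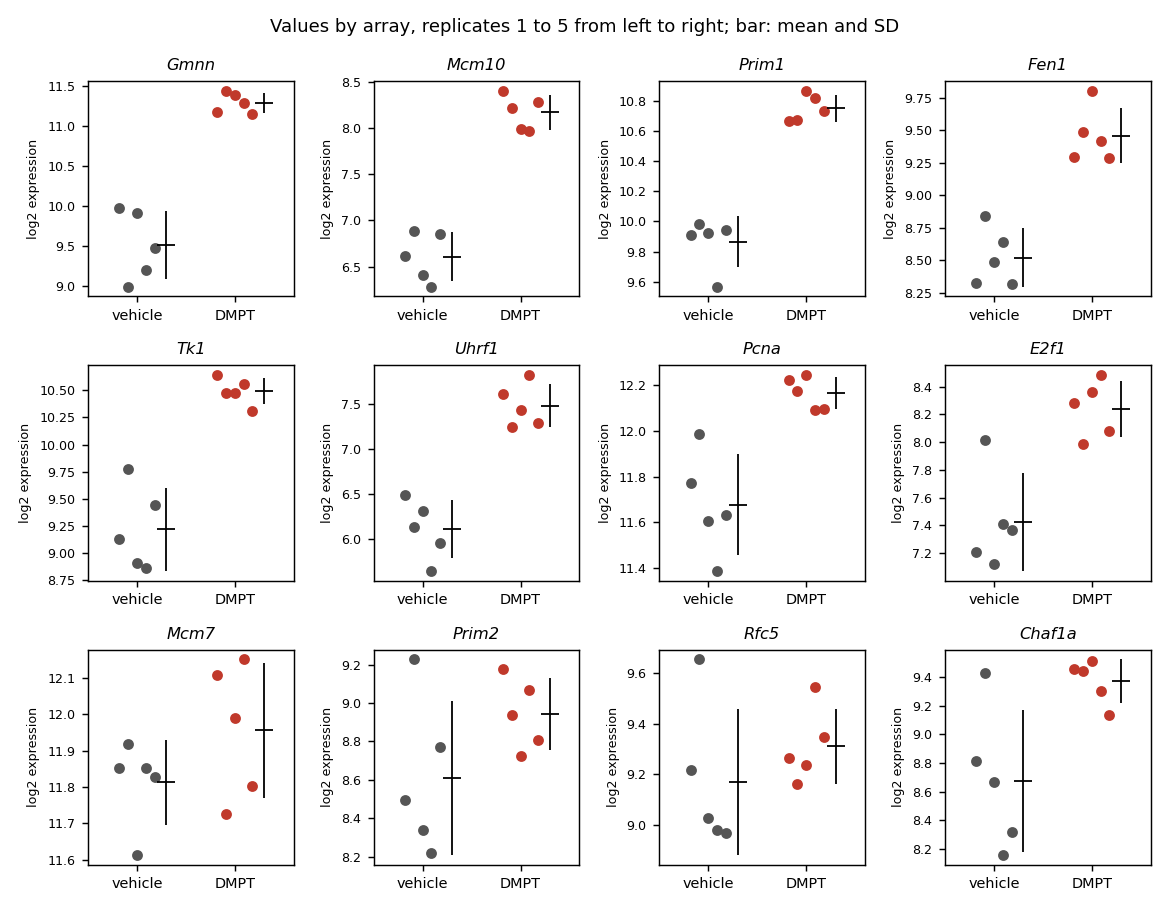
Log2 expression (y axes, not starting at 0) of 12 of the genes in each vehicle array (grey) and DMPT array (red), replicates 1 to 5 from left to right, with the group mean and SD as a black bar. Gmnn, Mcm10, Prim1, Fen1, Tk1, Uhrf1 and Pcna do not overlap between groups; Mcm7, Prim2, Rfc5 and Chaf1a do, and in E2f1 vehicle replicate 2 at 8.01 lies above DMPT replicate 2 at 7.99.

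Of 7 genes of primase and the replicative polymerases, 5 rose. Prim1, the catalytic subunit of primase, which lays down the RNA primer, read 9.91, 9.98, 9.92, 9.57 and 9.95 with vehicle and 10.67, 10.67, 10.87, 10.82 and 10.73 after DMPT. The groups were well apart, at 0.89 ± 0.10 (adjusted p = 0.000248), with vehicle replicate 4 lowest. Prim2, the large subunit of the same enzyme, read 8.49, 9.23, 8.34, 8.22 and 8.77 with vehicle and 9.18, 8.94, 8.72, 9.07 and 8.81 after DMPT. Vehicle replicate 2 was the highest of all 10 arrays. Prim2 differed by 0.33 ± 0.18 and did not pass (adjusted p = 0.282); without vehicle replicate 2 it passed, at 0.49 (adjusted p = 0.0359).

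Pole, the catalytic subunit of the leading strand polymerase, read 7.54, 8.06, 7.86, 7.81 and 8.09 with vehicle and 9.42, 8.93, 9.19, 9.00 and 8.49 after DMPT. It rose by 1.13 ± 0.17 (adjusted p = 0.00141), with DMPT replicate 5 lowest of its group and still above the vehicle arrays. Pole2, its accessory subunit, rose by 0.78 ± 0.20 (adjusted p = 0.0253). The call of Pole2 was lost without DMPT replicates 1, 2 or 3 or vehicle replicates 3, 4 or 5, with differences from 0.68 to 0.93. The subunits of polymerase alpha, which extends the primer, rose by 0.61 ± 0.14 (Pola1) and 0.56 ± 0.12 (Pola2); Pola2 was dim, with a vehicle mean of 6.27. Pold1, the catalytic subunit of the lagging strand polymerase, differed by 0.34 ± 0.11 (adjusted p = 0.0830). Pold1 passed without vehicle replicate 2 (0.40, adjusted p = 0.0289) or DMPT replicate 5 (0.41, adjusted p = 0.0407). Pold2, Pold3 and Pold4, which are no members, differed by 0.26, -0.07 and -0.29 and did not pass.

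At the clamp and on the lagging strand, 5 of 9 genes rose. Pcna, the sliding clamp and a common marker of S phase, read 11.77, 11.99, 11.61, 11.39 and 11.63 with vehicle and 12.22, 12.18, 12.24, 12.09 and 12.09 after DMPT. The DMPT arrays lay within a narrow band above all vehicle arrays, and the difference was 0.49 ± 0.11, or 1.40-fold (adjusted p = 0.0156). Fen1, the flap nuclease that trims Okazaki fragments, read 8.33, 8.84, 8.48, 8.64 and 8.31 with vehicle and 9.29, 9.49, 9.81, 9.42 and 9.29 after DMPT. It rose by 0.94 ± 0.13 (adjusted p = 0.00114) with no overlap. Lig1, the ligase that joins the trimmed fragments, differed by 0.33 ± 0.13 and did not pass (adjusted p = 0.129), while another Lig1 probe set was called at 0.71 (adjusted p = 0.0457).

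Rpa2, a subunit of the protein that coats single-stranded DNA, read 8.38, 7.43, 8.36, 8.07 and 8.54 with vehicle and 9.17, 8.90, 8.96, 8.92 and 8.91 after DMPT. Vehicle replicate 2 was low, the reverse of its place for most members, and the difference was 0.81 ± 0.18 (adjusted p = 0.0149). Without vehicle replicate 2 it was 0.63. Rpa1, the large subunit, differed by 0.25 ± 0.10 and did not pass. Rfc5, a subunit of the clamp loader, read 9.22, 9.66, 9.03, 8.98 and 8.97 with vehicle and 9.26, 9.16, 9.24, 9.55 and 9.35 after DMPT. Vehicle replicate 2 was again the highest of all arrays, and the difference was 0.14 ± 0.14 (adjusted p = 0.596; 95% interval -0.16 to 0.45), or 0.26 without that array (adjusted p = 0.107). A second Rfc5 probe set gave 0.39 and was not called either. Rfc4 rose by 0.49 ± 0.13 and Rfc3 by 0.43 ± 0.11, and Rfc2 differed by 0.34 ± 0.14 and did not pass. The calls of Rfc4 and Rfc3 were lost without 7 and 6 of the 10 arrays in turn, DMPT replicates 2, 3 and 4 and vehicle replicates 3 and 4 among both; also DMPT replicate 1 and vehicle replicate 5 for Rfc4, and vehicle replicate 1 for Rfc3. Differences then ranged from 0.41 to 0.58 for Rfc4 and from 0.38 to 0.51 for Rfc3.

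Other genes of the fork moved in part, with 5 of 18 higher and 0 lower. They were Dscc1, of an alternative clamp loader, at 1.48 ± 0.26, the DNA topoisomerase gene Top2a at 1.12 ± 0.22, the fork scaffold gene Wdhd1 at 0.99 ± 0.16, Chtf18 at 0.56 ± 0.11 and Atad5, of the clamp unloader, at 0.50 ± 0.14. Leaving out any array but vehicle replicate 2 ended the call of Atad5. Top2b, Rfc1 and Top1 differed by 0.05, 0.03 and 0.32 and did not pass. Of 14 genes in a list of fork protection, checkpoint and related genes, 5 rose and 0 fell. The checkpoint kinase gene Chek1 rose by 1.34 ± 0.14 (adjusted p = 0.000153), Timeless by 0.92 ± 0.17, the CHK1 activator gene Clspn by 0.84 ± 0.17 and the uracil glycosylase gene Ung by 0.81 ± 0.17. Cdc25b at 0.35 ± 0.10 kept its call in 2 of the 10 fits that each left out an array, those without vehicle replicate 1 or 2. Atr, the kinase upstream of CHK1, differed by -0.02 ± 0.11, and Tipin, the partner of TIMELESS, by 0.11 ± 0.11; neither passed.

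All 4 measured genes of nucleotide supply rose. Tk1, the S phase thymidine kinase of the salvage route, read 9.13, 9.77, 8.91, 8.86 and 9.44 with vehicle and 10.64, 10.47, 10.47, 10.56 and 10.31 after DMPT. The groups did not overlap, and the difference was 1.27 ± 0.16, or 2.41-fold (adjusted p = 0.000643). A second Tk1 probe set gave 1.58 and was called, and a further one gave -0.13 and was not. Tyms, which makes thymidylate from deoxyuridylate, read 9.00, 8.57, 8.16, 8.13 and 8.82 with vehicle and 9.53, 9.23, 9.27, 9.25 and 9.05 after DMPT. Its lowest DMPT array, replicate 5, lay just above vehicle replicate 1, and the difference was 0.73 ± 0.17 (adjusted p = 0.0189).

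Rrm1, the large subunit of ribonucleotide reductase, read 9.72, 10.22, 9.69, 9.50 and 9.63 with vehicle and 10.15, 10.40, 10.29, 10.21 and 10.16 after DMPT. Vehicle replicate 2 lay within the DMPT range, and the difference was 0.49 ± 0.13 (adjusted p = 0.0308). The call of Rrm1 was kept without DMPT replicate 1 or vehicle replicate 2 and lost without each of the other 8 arrays, with differences from 0.43 to 0.61 and adjusted p from 0.00127 to 0.0746. Dut, the dUTPase that keeps uracil out of DNA, rose by 0.39 ± 0.10 (adjusted p = 0.0301). The call of Dut was lost without DMPT replicates 1, 2, 3 or 4 or vehicle replicate 4, with differences from 0.31 to 0.43, and a second Dut probe set gave 0.078 and was not called.

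Of 17 other genes of deoxynucleotide metabolism, 4 rose and 0 fell. Dctpp1, a pyrophosphatase that clears the dCTP pool of damaged and excess nucleotides, rose by 0.93 ± 0.10 (adjusted p = 0.000241). The deoxycytidine kinase gene Dck rose by 1.03 ± 0.24, and the nucleoside diphosphate kinase genes Nme2 and Nme1 by 0.50 ± 0.09 and 0.38 ± 0.09. The call of Nme1 was lost without DMPT replicates 2, 3 or 4 or vehicle replicates 3 or 4. Samhd1, which degrades deoxynucleotides, differed by -0.02 ± 0.12, and the mitochondrial kinase genes Tk2 and Dguok by -0.04 and -0.25; none of these 3 passed. Dguok was called lower without vehicle replicate 2, at -0.37 (adjusted p = 0.0220).

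Of 18 genes of purine and pyrimidine synthesis, 6 rose and 0 fell, with a largest difference of 0.51. The CTP synthase gene Ctps1 rose by 0.51 ± 0.09, the purine synthesis gene Pfas by 0.49 ± 0.11 and the uridine-cytidine kinase gene Uck2 by 0.47 ± 0.08. Adsl rose by 0.40 ± 0.09, Umps by 0.33 ± 0.09 and Gmps by 0.33 ± 0.09; the calls of Umps and Gmps were lost without 7 and 8 of the 10 arrays in turn. Cad, which starts pyrimidine synthesis, and Ppat, which starts purine synthesis, differed by 0.25 ± 0.16 and 0.29 ± 0.14 and did not pass.

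All 6 genes of chromatin copying and S phase control rose. Uhrf1, which reads half-methylated DNA behind the fork and brings in the methyltransferase, read 6.49, 6.14, 6.31, 5.64 and 5.96 with vehicle and 7.61, 7.24, 7.44, 7.82 and 7.29 after DMPT. The groups did not overlap, at 1.37 ± 0.17 (adjusted p = 0.000409). Uhrf1 was dim, with a vehicle mean of 6.11, so the size is uncertain. Dnmt1, the maintenance methyltransferase, rose by 0.66 ± 0.15 (adjusted p = 0.0159), with vehicle replicate 2 at 8.68 and the other vehicle arrays between 9.39 and 9.53. Without vehicle replicate 2 the difference of Dnmt1 was 0.51.

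E2f1, the factor that switches on many S phase genes, read 7.20, 8.01, 7.12, 7.41 and 7.37 with vehicle and 8.28, 7.99, 8.36, 8.48 and 8.08 after DMPT. The groups overlapped through vehicle replicate 2 alone, and E2f1 rose by 0.82 ± 0.17 (adjusted p = 0.00907). Chaf1a, the large subunit of the chaperone that places histones on new DNA, read 8.82, 9.43, 8.66, 8.16 and 8.31 with vehicle and 9.46, 9.45, 9.51, 9.30 and 9.14 after DMPT. Its difference was 0.70 ± 0.20, with the adjusted p closest to the threshold among the called members (0.0494), and 9 of the 10 fits that each left out an array ended the call, all but the fit without vehicle replicate 2, with differences from 0.57 to 0.89. Its partner Chaf1b rose by 0.47 ± 0.13 (adjusted p = 0.0340), a call kept without DMPT replicate 5 or vehicle replicate 2 and lost without each of the other 8 arrays. Slbp, which binds histone messages, rose by 0.38 ± 0.09 (adjusted p = 0.0168), and its other 2 probe sets gave 0.14 and 0.036 and were not called.

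Among 18 other genes of the E2F and RB family, 7 rose and 0 fell. The cyclin A gene Ccna2 rose by 1.47 ± 0.25, the repressor gene E2f8 by 1.00 ± 0.18, the DREAM complex gene Lin9 by 0.73 ± 0.16 and the cyclin E gene Ccne1 by 0.69 ± 0.15. Rbl1, Mybl2 and Tfdp1 rose by 0.49 ± 0.12, 0.44 ± 0.12 and 0.39 ± 0.10, and their calls were lost without 2, 7 and 6 of the 10 arrays in turn. Rb1, the retinoblastoma gene, differed by -0.12 ± 0.17, Ccne2 by 0.19 ± 0.10 and Cdk2 by 0.41 ± 0.17, and these did not pass. E2f4 and E2f5, of the repressor branch, differed by -0.03 ± 0.12 and -0.0042 ± 0.14. Of 14 histone chaperone and S phase chromatin genes, 5 rose and 0 fell, among them the chaperone gene Asf1b at 1.34 ± 0.23, Atad2 at 0.45 ± 0.08 and the histone variant gene H2az1 at 0.42 ± 0.08. The other 2 were Hells at 0.89 ± 0.24 and Anp32e at 0.30 ± 0.08, whose calls were lost without 6 and 7 of the 10 arrays in turn. Mki67, the proliferation marker, rose by 0.88 ± 0.10.

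**Figure D5:**
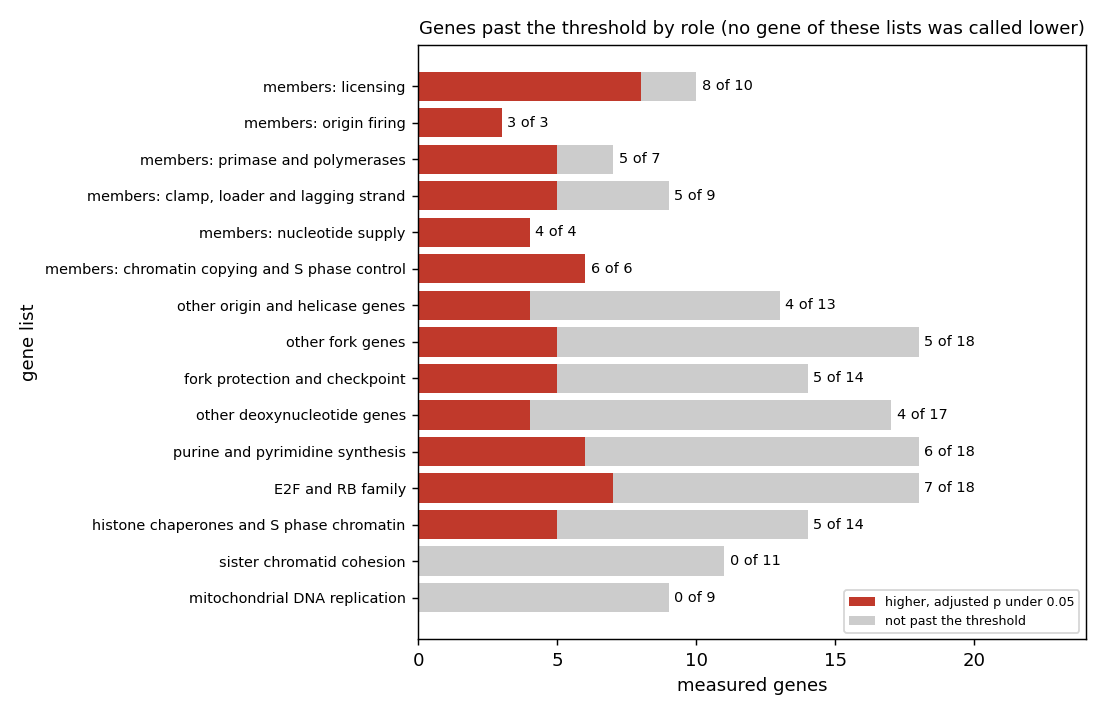
Number of measured genes (x axis) in each role group of members (6 upper bars) and in each list of other pathway genes (9 lower bars); red is higher after DMPT at an adjusted p of 0.05 in limma and grey did not pass. All measured genes of origin firing (3 of 3), nucleotide supply (4 of 4) and chromatin copying (6 of 6) were higher, and 0 of 11 and 0 of 9 in the cohesion and mitochondrial lists.

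Over all 132 measured pathway genes outside the members, 36 rose and 0 fell, a share to be read beside the 7.13% and 6.77% of all genes; at an unadjusted p under 0.05, 54 were higher and 1 lower. Their median difference was 0.20. Without vehicle replicate 2, 48 rose and 1 fell, and without DMPT replicate 3, 24 rose and 0 fell. For the less stable calls, the arrays whose omission left the call in place were DMPT replicates 1 and 5 and vehicle replicate 2 for Gins3, and vehicle replicates 1 and 2 for Mtbp. For Umps they were DMPT replicate 5 and vehicle replicates 2 and 3, with differences over all omissions from 0.31 to 0.38, and for Gmps vehicle replicates 2 and 3, with 0.27 to 0.35. Rbl1 lost its call without DMPT replicate 3 or 4 (0.40 to 0.56). Mybl2 kept it without DMPT replicates 2 or 4 or vehicle replicate 2 (0.38 to 0.51), and Tfdp1 without DMPT replicate 1 or vehicle replicates 1, 2 or 5 (0.34 to 0.44). Hells kept it without DMPT replicate 1 or vehicle replicates 2, 3 or 4 (0.65 to 1.02), and Anp32e without DMPT replicate 5 or vehicle replicates 1 or 2 (0.28 to 0.34).

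Markers of the captured tissue and of its neighbours were measured on the same arrays. The epithelial gene Epcam differed by -0.07 ± 0.09, and 4 of 12 epithelial markers rose and 0 fell. They were Ngfr at 1.96 ± 0.17, Krt5 at 0.60 ± 0.11, Cldn7 at 0.57 ± 0.11 and Krt8 at 0.44 ± 0.09. Of the other basal cell markers, Krt14, Krt15 and Tp63 differed by 0.10, 0.14 and 0.17 and did not pass. The mean level of the epithelial list ran from 12.1 to 12.4 with vehicle and from 12.6 to 12.7 after DMPT, with no overlap. That mean includes Ngfr, which had the largest difference of the list. Ngfr was dim with vehicle, at a mean of 6.11, so the size is uncertain. Of the 12 epithelial markers, 8 did not pass. Motile cilia markers fell in 7 of 8 cases, with Foxj1 at -0.88 ± 0.25. The mean log2 level of that list ran from 10.51 to 11.88 with vehicle and from 8.77 to 10.45 after DMPT, with no overlap. Endothelial markers rose in 7 of 11 cases, with Pecam1 at 1.15 ± 0.17. The mean level of that list ran from 6.36 to 7.47 with vehicle and from 7.28 to 8.51 after DMPT, and 10 of the 11 were dimmer than the middle probe set of the arrays. Of 15 leukocyte markers 5 rose and 2 fell. Those higher were Cd68 at 0.87, C1qb at 0.72, C1qc at 0.61, C1qa at 0.59 and Cd14 at 0.43. Cd74 at -0.46 and Lyz2 at -0.38 were lower, and the other 8, Ptprc at -0.18 ± 0.21 among them, did not pass. The mean level of the list ran from 8.85 to 9.00 with vehicle and from 8.76 to 9.28 after DMPT. Olfactory neuron markers gave 1 higher and 1 lower of 9, with Omp at 0.19 ± 0.28, and means from 7.56 to 7.84 and from 7.45 to 8.26. Genes listed for sustentacular and Bowman gland cells fell in 5 of 7 cases, with means from 10.8 to 11.4 and from 9.61 to 10.3. Those that fell were Ermn at -2.38, Cyp4a8 at -1.49, Sec14l3 at -1.46, Cyp2g1 at -1.06 and Cyp2a3 at -0.50. Cyp2a3 was bright, with a vehicle mean of 14.29. Obp1f at -0.64 and Ugt2a1 at 0.27 did not pass, and Ugt2a1 was dim, with a vehicle mean of 5.31. Which cells these transcripts came from was not tested. Stromal markers gave 0 higher and 0 lower of 10 in limma, with 0 higher and 0 lower at an unadjusted p under 0.05, and means from 9.23 to 10.1 and from 9.25 to 10.1. The part of a changed mix of cells in the rise of the replication genes was not tested.

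RNA quality also differed in range between the groups. The 3' minus 5' difference of the GAPDH and actin control probe sets ran from 1.17 to 1.497 log2 units with vehicle and from 0.87 to 1.30 after DMPT. The value of 1.497 was that of vehicle replicate 2. With that ratio as a covariate, 27 members rose and 0 fell, with a median difference of 0.73, and 5.95% of all genes were called higher. Over all probe sets that fit called 1328 higher and 951 lower. Orc1, Pola1, Rpa2, Tyms, Dut and Dnmt1 then lost the call and Pold1 and Lig1 gained it.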

How the data were processed

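The deposited table holds log2 expression values per probe set, made by the authors with RMA per the submitters' processing notes. No source used here names the software version or a filter. Of 31099 probe sets, 57 controls were set aside and 31042 tested. In the platform annotation 20826 of these had 1 gene symbol, 436 several and 9780 none, and genes were named from the first kind alone. Each gene was shown by its probe set with the highest mean. The median of each array was between 8.21 and 8.35. Precision is limited by the number of arrays, 5 per group.

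The test was limma's moderated two-sided test (version 3.58.1, R 4.3.3), with Benjamini-Hochberg adjustment over all tested probe sets. The authors used ORIOGEN at 5% FDR per the series' design text, which was not run here. Each array is a separately numbered animal; the labels say that cages were shared but not by which animals. Members and lists were chosen with earlier results of these data known, and the promoter words after their values were seen. All members were named. Of each other list, the 3 genes with the smallest p, any called against its list and a fixed panel were named by rule; other genes were named after their values were seen. Alternatives left out each array, added the replicate number or RNA quality, weighted arrays, or changed the prior, centring, normalization, filter or probe set choice.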

Additional observations from a re-analysis of the deposited data

Results flagged for a closer look

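In groups of 5 arrays, a value was singled out where its gap to the nearest other array, divided by the group's range, passed Dixon's critical value of 0.71. This met 13 of 152 groups tested (8.55%), where chance gives about 1 in 20, and 6 of the 13 were vehicle replicate 2. Among members it met 6 of 78 groups. Vehicle replicate 2 also had the largest 3' minus 5' difference of the control probe sets among the 10 arrays, 1.497 log2 units. Its limma array weight was the lowest, 0.21 against 0.81 to 1.66 in the other arrays. No explanation was tested.

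In vehicle replicate 2, Cdc45 read 8.778 log2 units against 8.10 to 8.29 in the other vehicle arrays. Dut read 12.14 there against 12.48 to 12.55, and Dnmt1 8.683 against 9.39 to 9.53. Outside the members, the same array gave 7.979 for Cdk2 against 8.76 to 8.83, 7.743 for Esco2 against 8.70 to 8.97, and 8.667 for Gins4 against 7.85 to 8.04. Pola1 read 9.173 in vehicle replicate 5 against 8.67 to 8.80, and Prim1 9.568 in vehicle replicate 4 against 9.91 to 9.98. Rpa2 read 9.174 in DMPT replicate 1 against 8.90 to 8.96 in the other DMPT arrays. Top2a read 8.648 in vehicle replicate 4 against 9.67 to 9.95. Of the cell markers, Krt5 read 12.86 in vehicle replicate 1 against 12.45 to 12.55. Omp read 7.975 in vehicle replicate 5 against 6.84 to 7.16, and 8.452 in DMPT replicate 1 against 7.02 to 7.39.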

How the results depend on the processing

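Over 19 alternatives, 740 values of members held 655 on the same side of the threshold, 68 that lost and 17 that gained the call, and 0 that changed sign. Of 31 called members, 18 kept the call in every alternative run. Leaving out 1 array at a time gave 23 to 33 members higher, 24 to 48 other pathway genes higher and 0 to 1 lower, and 1137 to 2130 probe sets higher and 1022 to 1886 lower. The lowest counts of lower probe sets came without DMPT replicate 3 (1022) and DMPT replicate 4 (1147). With the RNA quality covariate 951 probe sets were lower, against 1783. Other pathway genes called lower numbered 2 with array weights (Dguok, Stag2), 1 with the trend and robust prior (Stag2), 1 with the mean of probe sets (Tfdp2) and 1 with the probe set of largest variance (Nipbl), against 0. The cause was not tested. Deviations of arrays with the same replicate number correlated between -0.067 and 0.23. The titles do not state that the numbers pair animals, and correlations of this kind cannot decide it. With the replicate block 27 members were higher, and DMPT replicates 2 and 3 alone correlated best with their own number. Among members, dim probe sets limit the sizes given for Orc1, Pola2 and Uhrf1.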

Other observations

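Genes that hold sister chromatids together behind the fork gave 0 higher and 0 lower of 11 in limma, with 0 higher and 1 lower at an unadjusted p under 0.05. Stag2, a cohesin subunit, differed by -0.39 ± 0.12 (adjusted p = 0.0655, limma), and was called lower without vehicle replicate 4, at -0.47. Esco2, the acetyltransferase that locks cohesin in S phase, differed by 0.44 ± 0.21, and the core subunit genes Smc1a, Smc3 and Rad21 by -0.05 ± 0.13, 0.04 ± 0.09 and 0.07 ± 0.10. Nipbl differed by -0.16 ± 0.10 and did not pass, while its probe set of largest variance was called lower at -0.46 (adjusted p = 0.0423, limma). The median of the list was -0.03 log2 units.

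Genes that copy mitochondrial DNA gave 0 higher and 0 lower of 9 in limma, with 1 higher and 0 lower at an unadjusted p under 0.05. That gene was Polg, the catalytic subunit of the mitochondrial polymerase, at 0.24 ± 0.09 (adjusted p = 0.108, limma). The helicase gene Twnk differed by 0.20 ± 0.09 and the RNA polymerase gene Polrmt by -0.18 ± 0.14. Whether these lists differ from the nuclear replication genes was not tested.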
